A study of Mus musculus with 6 samples.

Results

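The antioxidant and glutathione genes were examined in bulk RNA-seq of back skin, taken at full thickness from male C57BL/6 mice aged 7 weeks. The members were taken by a rule on gene symbols and comprise the glutathione transferases (Gsta, Gstm, Gsto, Gstp, Gstt, Gstk and the microsomal Mgst genes), the glutathione peroxidases (Gpx), the peroxiredoxins (Prdx), the superoxide dismutases (Sod1, Sod2, Sod3), every gene whose symbol begins with Txn, the genes of glutathione synthesis and reduction (Gclc, Gclm, Gss, Gsr), and Nqo1, Hmox1, Hmox2, Srxn1 and Nfe2l2. The symbol rule took 70 of the 21959 genes of the deposited table. Mice shaved in telogen, the resting phase of the hair cycle, received either vehicle (dipropylene glycol in distilled water) or 3% rebamipide in that vehicle on that area daily, over 7 days. Rebamipide is a mucosal protective drug. Each group held 3 mice with 1 library each, and the comparison asked which members differed between rebamipide-treated and vehicle-treated skin, and whether members with mitochondrial products differed from those with cytosolic products.

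Superoxide formed by respiration and oxidases is turned into hydrogen peroxide by superoxide dismutases, of which SOD1 works in the cytosol, SOD2 in the mitochondrial matrix and SOD3 outside the cell. Hydrogen peroxide and lipid peroxides are then reduced by peroxiredoxins, which draw electrons from thioredoxin and thioredoxin reductase, and by glutathione peroxidases, which draw them from glutathione and glutathione reductase. Both systems end at NADPH. Glutathione transferases couple glutathione to reactive lipids and foreign compounds. NRF2, the product of Nfe2l2, is the transcription factor best known for driving many of these genes, and KEAP1 keeps it low in unstressed cells. In skin these systems are known from the epidermis, which meets light and air, and brown and white fat hold many of the same enzymes.

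The libraries held 32709801 to 39915276 counts. Mitochondrially encoded genes made up 2.59% to 5.36% of each vehicle library and 13.3% to 22% of each rebamipide library. The labelled tissue was checked against cell type markers before the members were examined. Ucp1, the uncoupling protein that defines brown fat, was at 0 counts in each vehicle sample, whereas the rebamipide samples held 81048, 220449 and 150572 counts. Of 8 brown adipocyte markers 6 were higher and none was lower, and their summed level, as counts scaled to library size (CPM), was 214 to 384 CPM under vehicle and 5040 to 13000 CPM under rebamipide. Of 8 adipocyte markers 5 were higher, with sums of 1460 to 4330 and 9920 to 17100 CPM. Red cell markers (3 of 5 higher, sums of 42.4 to 200 against 345 to 809 CPM) and endothelial markers (3 of 5 higher, 203 to 471 against 969 to 1410 CPM) were also higher in part. Of 6 sebaceous gland markers 1 was higher and 1 lower. Their sums were 926 to 2350 CPM under vehicle and 6130 to 11400 CPM under rebamipide, yet their median log2 fold change was -1.76. Elovl3 was on both this list and the brown adipocyte list. No fibroblast, skeletal muscle or leukocyte marker passed. Fibroblast markers summed to 12000 to 17700 CPM under vehicle and 1850 to 15100 CPM under rebamipide, skeletal muscle markers to 5540 to 28500 and 285 to 36500 CPM, and leukocyte markers to 497 to 1290 and 321 to 1060 CPM. The basal keratinocyte markers summed to 2510 to 4050 CPM under vehicle and to 144 to 1180 CPM under rebamipide, and 0 of 7 passed the test. The suprabasal keratinocyte markers summed to 1370 to 6340 and to 5.61 to 1570 CPM, with 0 of 7 past the test. The third rebamipide library stood apart, with 0 counts of Krt14, 4 of Krt5 and 51 of Krt10, keratins that every epidermis holds, so its label as full-thickness skin is not borne out by keratinocyte markers. In bulk tissue, fewer cells of a type and less RNA per cell cannot be told apart, and the part of tissue composition in the results that follow was not tested.

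Of the 70 members, 62 passed the expression filter, and 23 of these were higher and 0 were lower in rebamipide-treated skin. The test was edgeR's quasi-likelihood test on counts normalized with TMM (trimmed mean of M-values), with Benjamini-Hochberg adjustment over all 14875 genes tested and a call at an adjusted p under 0.05. Over all genes tested, 14.1% were called higher and 6.51% lower, against 37.1% and 0 of 62 among the members. The median log2 fold change was 0.69 over the tested members and -0.17 over all genes tested. With the thresholds of the study's methods, an unadjusted p below 0.05 with a log2 fold change beyond 1 either way, 24 members were higher and 4 were lower, against 14.3% and 14.5% of all genes. DESeq2 called 30 members higher and 4 lower, against 18.3% and 17% of all genes. All 3 rebamipide libraries lay above all 3 vehicle libraries for 35 members and below them for 6, where 24.5% and 24% of all genes did so. The 6 were Gpx2, Gsta1, Gsta2, Hmox1, Txndc16 and Txndc17, and with edgeR 5 members had an unadjusted p under 0.05 in that direction. The 8 members left untested were Gstm3, Gsta5, Gstt4, Gpx5, Gpx6, Prdx6b, Txndc2 and Txndc8. Of these, Gpx5, Gpx6, Prdx6b and Txndc8 had 0 counts in every library, which allows up to 3 counts, or 0.0601 to 0.117 CPM by library. This limit covers counting error only.

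The calls depended on single libraries and on the scaling. Without the second vehicle library edgeR called 0 members, with 26 at an unadjusted p under 0.05. DESeq2 then called 22 members higher, against 2092 of all 14656 genes. Without the second rebamipide library edgeR again called 0, with 27 at an unadjusted p under 0.05. DESeq2 then called 28 members higher, against 2684 of all 15335 genes. Without the third rebamipide library, the one short of keratins, 13 of the 23 calls were kept. The 10 lost then were Gpx3 (adjusted p = 0.0957), Gstm7 (0.0529), Gstp1 (0.0911), Hmox2 (0.0715), Prdx5 (0.113), Prdx6 (0.09), Srxn1 (0.124), Txndc12 (0.0916), Txnip (0.0611) and Txnl4b (0.0554). All 23 kept a positive log2 fold change in each of these fits. With scaling by total counts alone the median over all genes moved from -0.175 to -0.778. Then 16 of the 62 tested members were higher and 8 were lower, against 1258 and 3752 of all 14875 genes tested. The 7 calls lost with this scaling were Gpx3, Gstp1, Hmox2, Prdx5, Prdx6, Srxn1 and Txndc12, and limma on log2(FPKM + 1) of the deposited values lost the same 7. The 8 lower with total counts alone were Gsta1, Hmox1, Nfe2l2, Txndc5, Txndc9, Txndc16, Txndc17 and Txnl1. The losses without a library reach all genes: edgeR called 0 of 14964 genes without the second vehicle library and 1 of 15335 without the second rebamipide library, so each edgeR count of called genes given here, further lists included, falls to 0 or 1 in these fits.

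**Figure D1:**
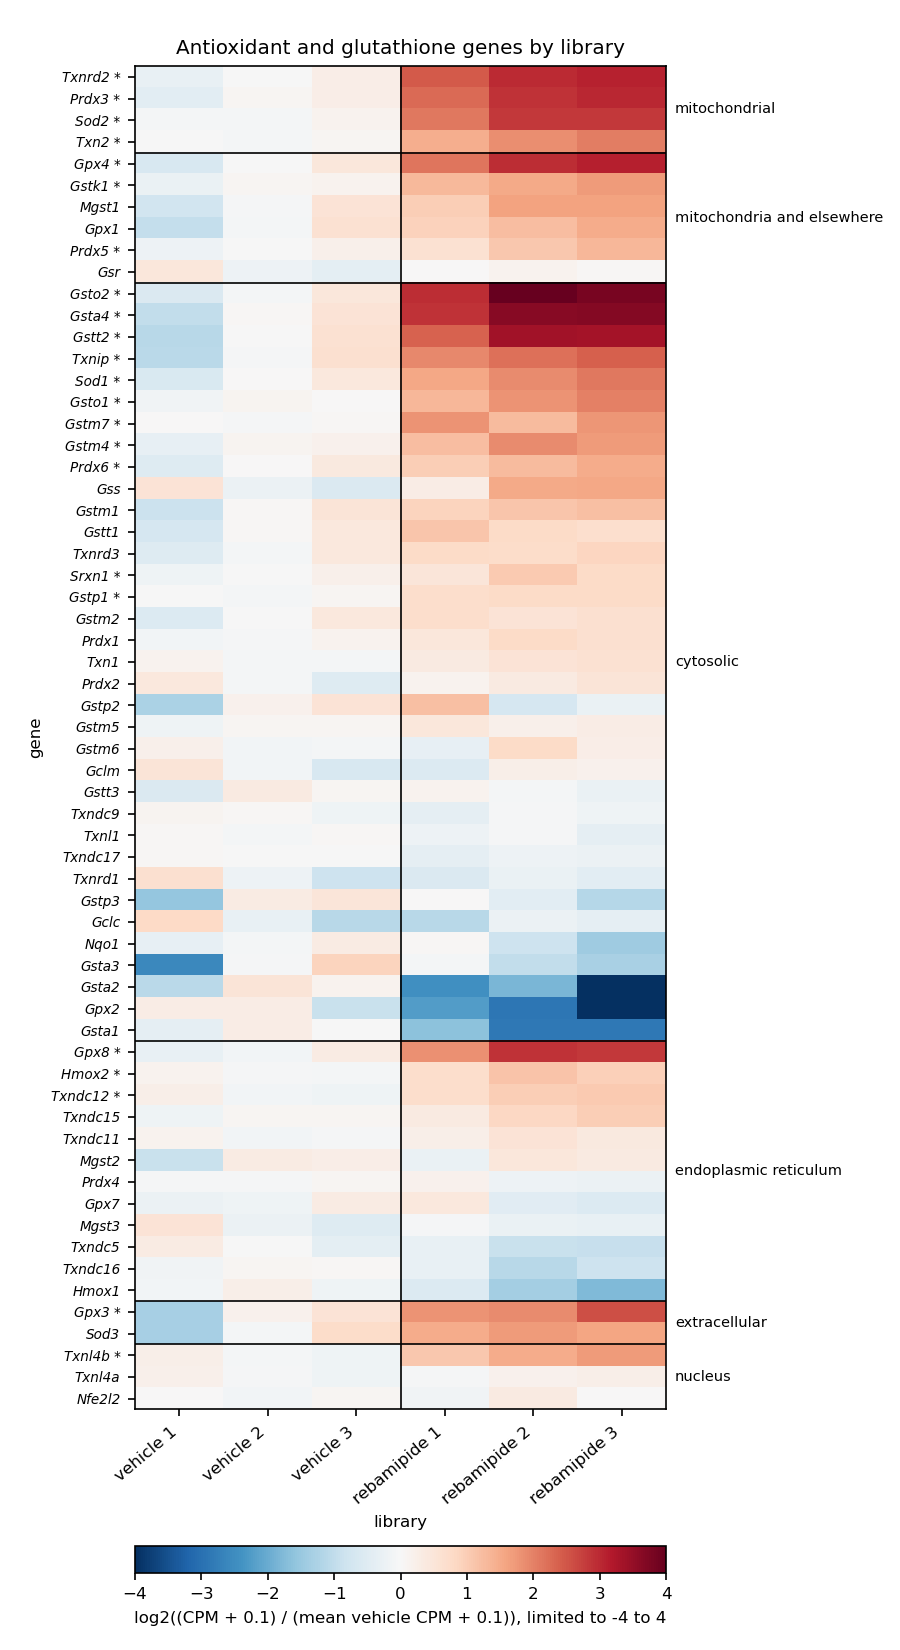
Heat map of the 62 tested members (rows, grouped by the compartment of their products) in the 6 libraries (columns). Colour gives log2 of CPM + 0.1 over the mean vehicle CPM + 0.1, limited to -4 to 4, and an asterisk marks the 23 genes called higher. The mitochondrial rows are red in each rebamipide library, whereas the cytosolic rows run from dark red (Gsto2, Gsta4, Gstt2) to dark blue (Gsta1, Gpx2, Gsta2).

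Compartments were assigned from textbook knowledge of the main product. The 4 members with mitochondrial products, Sod2, Prdx3, Txn2 and Txnrd2, were all higher (median log2 fold change 2.70). Of 39 cytosolic members 35 were tested, of which 11 were higher and 0 were lower, with a median of 0.51. This cytosolic median turned to -0.12 with scaling by total counts alone, where the mitochondrial median was 2.05. The summed level of the 4 mitochondrial members was 264.1, 286.1 and 328.3 CPM in the vehicle libraries and 1199, 1862 and 1948 CPM in the rebamipide libraries. Divided by the summed level of the cytosolic members in the same library, this gave 0.132, 0.14 and 0.141 under vehicle and 0.335, 0.43 and 0.424 under rebamipide, a ratio that no scaling between libraries can change. The groups did not overlap. The members stood among many genes of the organelle: of 1748 tested genes that the deposited table annotates to the mitochondrion, 758 (43.4%) were higher and 48 were lower with all 6 libraries, and the median was 0.82 on the log2 scale. Of the 6 members found in mitochondria and elsewhere (Gpx1, Gpx4, Prdx5, Gstk1, Mgst1, Gsr) 3 were higher, with a median of 1.33. Of 12 members of the endoplasmic reticulum 3 were higher, with a median of 0.07. Taking the compartments from the table's annotation instead, 11 of 22 tested members annotated to the mitochondrion were higher (median 1.14). Of 23 annotated to the cytosol and not to the mitochondrion, 6 were higher (median 0.33). Gsta4, counted as cytosolic above, is annotated to the mitochondrion and not to the cytosol.

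**Figure D2:**
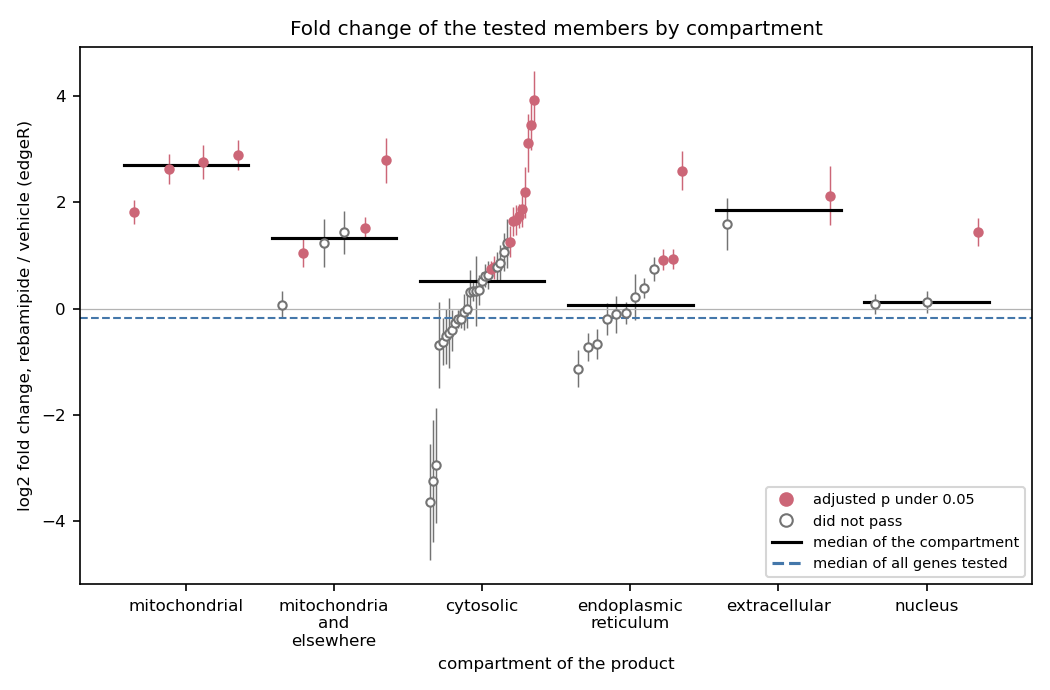
Log2 fold change (rebamipide over vehicle, edgeR, vertical axis) of each tested member by the compartment of its product, with bars of 1 standard error. Filled points passed at an adjusted p under 0.05, black lines are medians of a compartment and the dashed line is the median of all 14875 genes tested (-0.175). The mitochondrial points lie between 1.81 and 2.89 and the cytosolic points between -3.64 and 3.93.

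Sod2, the manganese superoxide dismutase of the mitochondrial matrix, had 119, 118 and 137 CPM in the vehicle libraries and 539, 886 and 883 CPM in the rebamipide libraries (log2 fold change 2.63, with a standard error, SE, of 0.29, adjusted p = 0.00939). Prdx3, the peroxiredoxin of the matrix, had 63.7, 90.1 and 102 CPM against 409, 637 and 688 CPM (log2 fold change 2.76, SE 0.32, adjusted p = 0.00939). In both genes the lowest rebamipide library was over 3 times the highest vehicle library. Txn2, the mitochondrial thioredoxin, had 75.4, 71.2 and 80.8 CPM against 209, 278 and 313 CPM (log2 fold change 1.81, SE 0.22, adjusted p = 0.00988). Txnrd2, the reductase that recharges it, had 6.01, 7.39 and 8.98 CPM against 41.6, 60.2 and 63.8 CPM (log2 fold change 2.89, SE 0.28, adjusted p = 0.00939). None of the 4 genes overlapped between groups, and the first rebamipide library was the lowest of its group in each. That library also had the fewest Ucp1 counts (81048) and the lowest share of counts from the mitochondrial genome (13.3%) of the rebamipide libraries. With the second vehicle library left out edgeR's adjusted p was 0.0747 for the 4 genes, and with the second rebamipide library left out it was at most 0.0573. Without the third rebamipide library it was 0.0212 to 0.0258, and DESeq2 called the 4 genes in each of its fits that left out a library.

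The bases just before the start of these 4 genes are shown because the genes moved together. They are the 120 bases upstream of the RefSeq start (GRCm38.p6), in the direction of the gene, with GC boxes (GGGCGG on either strand, a common promoter element) in capitals.
Sod2, chr17:13007719-13007838, plus strand: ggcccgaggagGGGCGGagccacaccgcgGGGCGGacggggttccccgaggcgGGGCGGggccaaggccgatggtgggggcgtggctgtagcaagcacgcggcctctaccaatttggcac
Prdx3, chr19:60874539-60874658, minus strand: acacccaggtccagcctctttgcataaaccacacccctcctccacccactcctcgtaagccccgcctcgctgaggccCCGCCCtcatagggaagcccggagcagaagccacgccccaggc
Txn2, chr15:77928995-77929114, minus strand: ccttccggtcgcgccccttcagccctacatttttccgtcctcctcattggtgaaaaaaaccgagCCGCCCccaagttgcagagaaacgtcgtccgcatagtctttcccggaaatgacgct
Txnrd2, chr16:18426297-18426416, plus strand: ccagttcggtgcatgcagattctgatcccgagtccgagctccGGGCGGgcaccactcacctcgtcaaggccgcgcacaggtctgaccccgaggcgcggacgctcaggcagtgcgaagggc
Sod2 held 3 GC boxes in this stretch and each of the others held 1. Over the whole RefSeq promoter window, from 250 bases before to 50 after the start, 43 of the 59 members with a sequence held a GC box (72.9%), as did 38.2% of all 27025 genes. The antioxidant response element described below was in none of the 4 windows.

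Each mitochondrial gene was then set against its cytosolic paralog within a library, as the ratio of counts per gene length, which does not depend on scaling between libraries. Txnrd2 over Txnrd1 was 0.0348, 0.0785 and 0.145 in the vehicle libraries and 0.564, 0.663 and 0.774 in the rebamipide libraries, a 9.01-fold difference of the geometric means. Prdx3 over Prdx1 was 0.351, 0.477 and 0.466 against 1.54, 1.91 and 2.26, a 4.39-fold difference. By this length-scaled measure Prdx3 was the lower of the pair in each vehicle library and the higher in each rebamipide library. In CPM, which is not divided by length, Prdx3 was above Prdx1 only in the third rebamipide library (688 against 628 CPM). Prdx3 over Prdx2 was 0.607, 1.22 and 1.86 against 4.78, 6.32 and 6.24 (5.16-fold). Txn2 over Txn1 was 0.189, 0.208 and 0.234 against 0.447, 0.523 and 0.571 (2.44-fold). Sod2 over Sod1 differed least, at 0.878, 0.57 and 0.498 against 0.896, 1.17 and 0.991 (1.61-fold), and the first vehicle library nearly reached the first rebamipide library. In all 5 pairs the groups did not overlap. With 3 libraries a group the 2-sided exact permutation test cannot go below p = 0.1, which each of the 5 pairs reached (0.1 also after adjustment over the 5 pairs), so no pair passed.

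**Figure D3:**
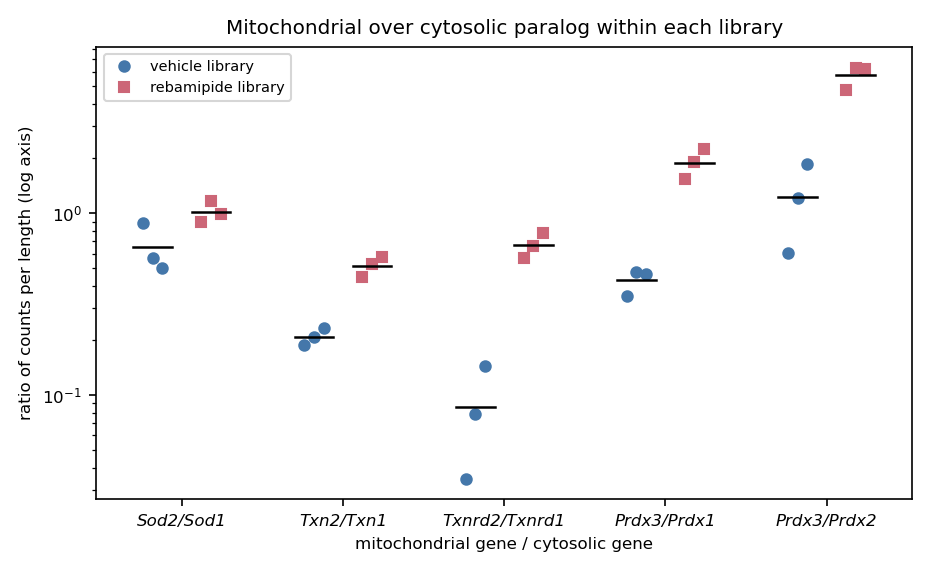
Ratio of counts per length of a mitochondrial gene to its cytosolic paralog (vertical log axis) in each library, with a black line at the mean of each group. Circles are vehicle and squares are rebamipide libraries. The squares lie above the circles in all 5 pairs, by least for Sod2 over Sod1.

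Among the other superoxide dismutases, Sod1, the copper and zinc enzyme of the cytosol, had 53.7, 81.8 and 109 CPM in the vehicle libraries and 239, 300.4 and 354 CPM in the rebamipide libraries (log2 fold change 1.87, SE 0.33, adjusted p = 0.0158). The groups were well apart. Sod1 lies across Scaf4 on the opposite strand, whose log2 fold change was 0.22 (adjusted p = 0.57). Sod3, the secreted enzyme bound to the extracellular matrix, had 17.3, 40.9 and 72.3 CPM against 121, 142 and 129 CPM, a log2 fold change of 1.59 that did not pass with edgeR (adjusted p = 0.0666) and did with DESeq2 (0.0161) and limma-voom (0.0464). Its vehicle libraries spread more than 4-fold, with the first the lowest, whereas its rebamipide libraries lay close together. Without the second vehicle library or the second rebamipide library the call of Sod1 was lost, with an adjusted p of up to 0.0923, and DESeq2 called Sod1 in 6 of 6 such fits. Ccs, which loads copper into SOD1, was higher as well (15.2 ± 0.705 to 50.9 ± 14.6 CPM, SD, n = 3, log2 fold change 1.75, adjusted p = 0.0123).

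Of the 6 tested peroxiredoxins 3 were higher. Beside Prdx3, Prdx5, which is sent to mitochondria, peroxisomes and the cytosol, had 117, 131 and 154 CPM under vehicle and 204, 286 and 339 CPM under rebamipide (log2 fold change 1.04, SE 0.26, adjusted p = 0.0385). Prdx6, which reduces phospholipid peroxides with glutathione, had 81.9, 119 and 154 CPM against 235, 284 and 330.4 CPM (log2 fold change 1.26, SE 0.29, adjusted p = 0.0329). In both genes the first vehicle library was the lowest and the groups did not overlap. Prdx1, the most abundant peroxiredoxin of the cytosol, had 373.5, 389 and 449 CPM against 547, 689 and 628 CPM, a log2 fold change of 0.62 with an adjusted p of 0.0897 (0.0311 with DESeq2) that became -0.004 with scaling by total counts alone. Prdx2, known from red cells, had 217, 153 and 112 CPM against 177, 208 and 228 CPM, with overlapping groups and a log2 fold change of 0.35 (adjusted p = 0.393) that became -0.29 with scaling by total counts alone. The red cell markers summed to 42.4 to 200 CPM under vehicle and 345 to 809 CPM under rebamipide, and their part in this value was not tested. Its span meets Junb and Rnaseh2a on the opposite strand. Prdx4, the peroxiredoxin of the endoplasmic reticulum, had 22.0, 21.9 and 24.2 CPM against 25.4, 19.9 and 19.1 CPM (log2 fold change -0.08, adjusted p = 0.79). Srxn1, the sulfiredoxin that restores overoxidized peroxiredoxins, had 37.9, 42.4 and 49.3 CPM against 59.9, 88.5 and 73.9 CPM and passed narrowly (log2 fold change 0.78, SE 0.21, adjusted p = 0.049). With scaling by total counts alone the log2 fold changes of Prdx5 (0.40, adjusted p = 0.147), Prdx6 (0.63, adjusted p = 0.0926) and Srxn1 (0.14, adjusted p = 0.487) no longer passed. With limma on log2(FPKM + 1) Prdx5 (adjusted p = 0.12), Prdx6 (0.0624) and Srxn1 (0.454) did not pass either. The call of Srxn1 was also lost with RLE scaling (adjusted p = 0.0547), limma-voom (0.0502) and no filter (0.0594). Across the fits that each left out 1 library, edgeR called Srxn1 in 1 of 6, Prdx5 in 1 of 6 and Prdx6 in 2 of 6, with adjusted p-values of up to 0.175, 0.145 and 0.135. DESeq2 called Prdx5 and Prdx6 in 6 of 6 and Srxn1 in 4 of 6.

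Txn1, the cytosolic thioredoxin, had 99.5, 85.4 and 86.3 CPM in the vehicle libraries and 117, 133 and 137 CPM in the rebamipide libraries, a log2 fold change of 0.51 (adjusted p = 0.0784) that became -0.12 with scaling by total counts alone. Its reductase Txnrd1 had 278, 152 and 99.9 CPM against 119, 146 and 133 CPM (log2 fold change -0.41, adjusted p = 0.448). The groups of Txnrd1 overlapped, and its vehicle libraries spread nearly 3-fold with the first the highest. Without that library its log2 fold change was 0.05. Txnrd3, the third reductase, had 10.5, 14.2 and 20.1 CPM against 25.4, 24.9 and 27.1 CPM (log2 fold change 0.79, adjusted p = 0.0925). Txnip, which binds thioredoxin and blocks it and also curbs glucose uptake, was higher, with 136, 275 and 448 CPM against 1084, 1307 and 1517 CPM (log2 fold change 2.19, SE 0.47, adjusted p = 0.0273). Its vehicle libraries differed 3.28-fold among themselves, but none came near the rebamipide libraries. The call of Txnip was lost without the second vehicle library, the second rebamipide library or the third rebamipide library, with an adjusted p of up to 0.125, and DESeq2 called it in 6 of 6 fits that left out a library.

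Of the 6 tested glutathione peroxidases 3 were higher. Gpx4, which reduces lipid peroxides inside membranes and is known for restraining ferroptosis, had 93.6, 143 and 200 CPM under vehicle and 641, 1117 and 1267 CPM under rebamipide (log2 fold change 2.79, SE 0.42, adjusted p = 0.012). Gpx3, the secreted enzyme of plasma that kidney and fat also make, had 270.04, 767 and 995 CPM against 2345, 2491 and 4028 CPM (log2 fold change 2.13, SE 0.55, adjusted p = 0.0433). Gpx8, a peroxidase of the endoplasmic reticulum membrane, had 25.5, 29.0 and 38.7 CPM against 110.05, 233 and 221 CPM (log2 fold change 2.60, SE 0.36, adjusted p = 0.0104). For these 3 genes the lowest rebamipide library was over 2 times the highest vehicle library. Gpx2, known from the gut epithelium and other epithelia, had lower values under rebamipide, with 5.77, 5.79 and 2.48 CPM against 0.92 and 0.55 CPM and 0 counts in the third rebamipide library, which allows up to 0.114 CPM. Its log2 fold change of -3.24 did not pass with edgeR (adjusted p = 0.0892) and did with DESeq2 (adjusted p = 0.00751). The keratinocyte markers were lowest in that same library. Without it Gpx2 had a log2 fold change of -2.66 and an adjusted p of 0.0529. Gpx1, the widespread enzyme of cytosol and mitochondria, had 142 to 410 counts, or 2.84, 5.30 and 8.62 CPM against 10.6, 13.2 and 15.6 CPM (log2 fold change 1.24, adjusted p = 0.0941, with DESeq2 0.0447). GENCODE vM21 tags Gpx1 as an overlapping locus, and whether counting lost reads there was not tested. Gpx7, a peroxidase of the endoplasmic reticulum, had overlapping groups (12.9 ± 2.95 and 11.96 ± 4.79 CPM, SD, n = 3, adjusted p = 0.834). The calls of Gpx4 and Gpx8 were lost without the second vehicle or the second rebamipide library, with adjusted p-values of up to 0.0788 and 0.0747. That of Gpx3 was lost when libraries were scaled by total counts alone (1.504 on the log2 scale, adjusted p = 0.0658), with limma on log2(FPKM + 1) (1.65, adjusted p = 0.052) and with no filter (2.09, adjusted p = 0.0507). It was kept in 1 of the 6 fits that left out a library, the one without the first rebamipide library (up to 0.149 in the others), and DESeq2 called each of the 3 genes in 6 of 6.

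Most of these enzymes, and the thioredoxin reductases, carry selenocysteine at the active site, which is read from TGA, a codon that otherwise stops translation. The codon and its neighbours are shown because they are the feature that divides the family, from GENCODE vM21 transcripts on GRCm38, with the codon in capitals and at most 12 coding bases on either side.
Gpx1, codon 47, chr9:108339439-108339465, plus strand: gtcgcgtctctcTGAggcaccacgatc
Gpx2, codon 40, chr12:76795244-76795270, minus strand: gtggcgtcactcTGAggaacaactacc
Gpx3, codon 73, chr11:54907244-54907270, plus strand: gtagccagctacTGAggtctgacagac
Gpx4, codon 73, chr10:80054725-80054751, plus strand: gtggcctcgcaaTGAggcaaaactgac
Gpx7, codon 56, chr4:108403418-108403444, minus strand: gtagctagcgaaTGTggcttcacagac
Gpx8, codon 79, chr13:113045649-113045675, minus strand: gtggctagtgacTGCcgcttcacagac
Txnrd1, codon 498, chr10:82896025-82896045, plus strand: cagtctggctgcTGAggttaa
Txnrd2, codon 526, chr16:18477760-18477780, plus strand: gtgactggttgcTGAggctaa
Txnrd3, codon 614, chr6:89674777-89674797, plus strand: cagaaaggctgcTGAggctag
In Gpx7 and Gpx8 the same place holds a cysteine codon. In the reductases selenocysteine is the last residue but one, so that a single codon separates it from the stop. Of the 7 selenocysteine genes Gpx3, Gpx4 and Txnrd2 were higher and Gpx1, Gpx2, Txnrd1 and Txnrd3 did not pass, and of the cysteine genes Gpx8 was higher and Gpx7 did not pass. Genes of each kind were therefore found on both sides of the threshold.

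**Figure D4:**
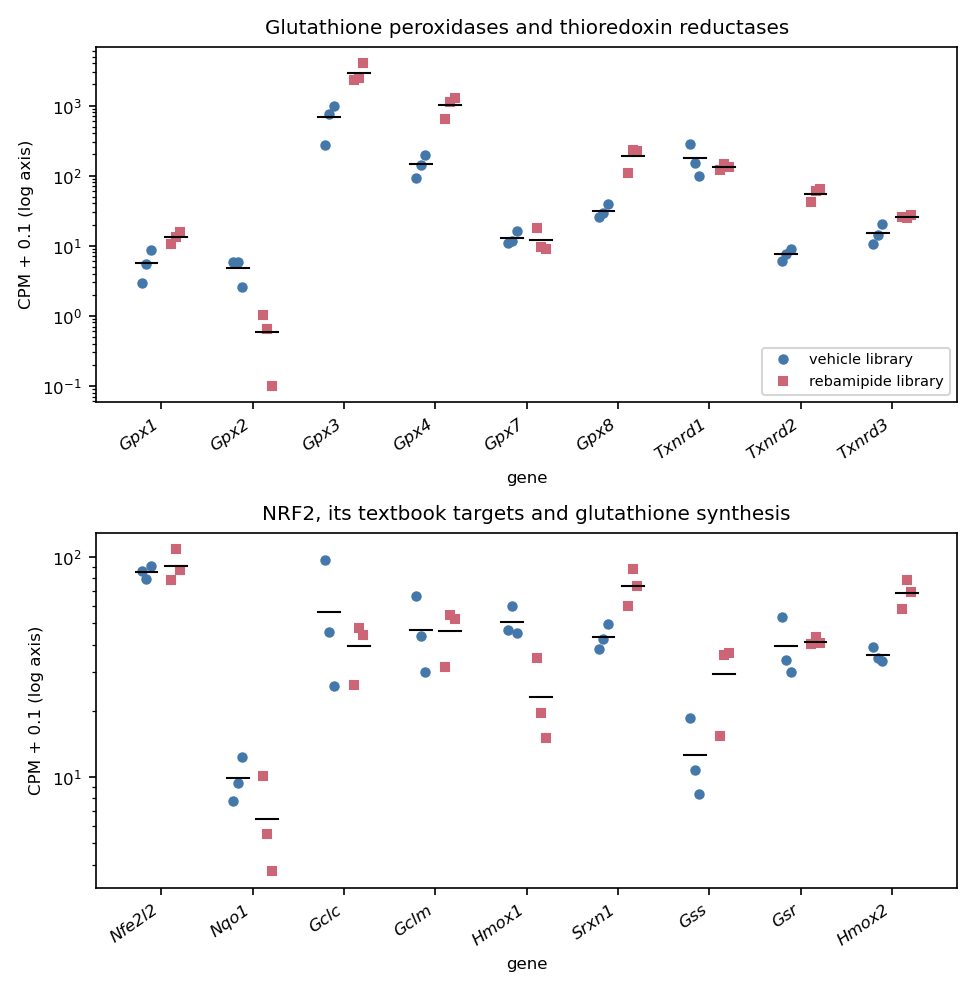
CPM + 0.1 (vertical log axis) in each library for the glutathione peroxidases and thioredoxin reductases (upper panel) and for Nfe2l2, NRF2 target genes and glutathione synthesis genes (lower panel). Circles are vehicle libraries, squares are rebamipide libraries and black lines are group means. Gpx3, Gpx4, Gpx8 and Txnrd2 are raised in each rebamipide library, whereas Gclc, Gclm, Gsr and Nfe2l2 overlap between the groups.

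The cytosolic glutathione transferases had fold changes of opposite sign within single families, and those below 0 did not pass in the edgeR fit to all 6 libraries. Of 21 such genes 18 were tested, and 7 were higher and 0 were lower, and their median log2 fold change was 0.69. DESeq2 called 8 higher and 2 lower. Gsta4, which conjugates the lipid peroxidation product 4-hydroxynonenal, had 2.92, 6.05 and 8.77 CPM in the vehicle libraries and 44.3, 74.7 and 76.4 CPM in the rebamipide libraries, an 11.02-fold difference of the means (log2 fold change 3.46, SE 0.48, adjusted p = 0.0104). Its relatives Gsta1 and Gsta2, drug-conjugating enzymes, had lower values under rebamipide, at low counts, and did not pass. Gsta2 had 42, 137 and 98 counts against 8, 12 and 0 counts (log2 fold change -2.95, adjusted p = 0.0972). Gsta1, named after its values were seen, had 23, 39 and 29 counts against 4, 0 and 0 counts (log2 fold change -3.64, adjusted p = 0.06). Neither overlapped between the groups, and DESeq2 called both lower (adjusted p = 0.0176 for Gsta2 and 0.018 for Gsta1). With edgeR, Gsta1 passed on total counts alone (-4.17, adjusted p = 0.0392) and in 1 of the 6 fits that left out a library (adjusted p = 0.0199). Its log2 fold change ran from -7.63 to -3.11 across those fits and that of Gsta2 from -3.78 to -2.37, so the size of either difference is poorly fixed at these counts. Gsta3 spread over 11-fold among the vehicle libraries (4.85, 28.7 and 55.3 CPM) and overlapped with the rebamipide libraries (28.4, 14.9 and 12.02 CPM, adjusted p = 0.552). Reads of Gsta1 and Gsta2, and of the clustered Gstm and Gstp genes, could match near-identical copies, and how the counting treated such reads was not tested. Single values in these families are therefore uncertain.

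Both omega class genes were higher. Gsto1, which reduces dehydroascorbate and methylated arsenic, had 34.6, 41.7 and 39.1 CPM against 96.8, 133 and 156 CPM (log2 fold change 1.74, SE 0.23, adjusted p = 0.00993). Gsto2 was scarce under vehicle, with 13, 20 and 30 counts, and had 124, 222 and 193 counts under rebamipide (log2 fold change 3.93, SE 0.53, adjusted p = 0.0101), the highest fold change of the 62 tested members. Both lie across Cfap43 on the opposite strand, whose log2 fold change was -0.59 (adjusted p = 0.259). Of the theta class, Gstt2 had 1.48, 3.29 and 5.13 CPM against 17.3, 34.9 and 34.0 CPM (log2 fold change 3.12, SE 0.55, adjusted p = 0.0164). Gstt1 had 7.61, 12.5 and 16.1 CPM against 26.1, 20.5 and 19.3 CPM (adjusted p = 0.107), and Gstt3 had overlapping groups (adjusted p = 0.911).

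Of the mu class, Gstm4 (8.19, 11.2 and 11.8 CPM against 24.5, 38.6 and 34.4 CPM, log2 fold change 1.64, adjusted p = 0.0143) and Gstm7 (2.68, 2.56 and 2.72 CPM against 9.45, 6.59 and 9.31 CPM, log2 fold change 1.67, adjusted p = 0.0156) were higher. Gstm7 was almost level over the 3 vehicle libraries, unlike most members that were higher. Gstm1, the most abundant of the class, had 55.6, 103 and 142 CPM against 185, 216 and 231 CPM (log2 fold change 1.07, adjusted p = 0.0791, with DESeq2 0.0413). Gstm2 had a log2 fold change of 0.63 (adjusted p = 0.136), and that of Gstm5, 0.33 (adjusted p = 0.219), became -0.27 with scaling by total counts alone. Of the pi class, Gstp1 had nearly constant levels within a group, at 54.9, 52.9 and 59.4 CPM against 91.0, 94.0 and 95.7 CPM, and was higher by a small step (log2 fold change 0.75, SE 0.15, adjusted p = 0.0228). With scaling by total counts alone its log2 fold change was 0.13 (adjusted p = 0.498). Gstp2 and Gstp3 had overlapping groups (adjusted p = 0.732 and 0.62), and the log2 fold change of Gstp2, 0.33, became -0.18 with scaling by total counts alone. Without the second vehicle library or the second rebamipide library none of the 7 calls was kept by edgeR, with adjusted p-values of up to 0.0747 for Gsta4, Gsto1 and Gsto2, 0.0922 for Gstt2, 0.0809 for Gstm4, 0.099 for Gstm7 and 0.125 for Gstp1. Without the third rebamipide library those of Gstm7 (0.0529) and Gstp1 (0.0911) were lost too, while DESeq2 called the 7 genes in 6 of 6 such fits.

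Gstk1, the kappa class transferase of mitochondria and peroxisomes, had 17.9, 22.5 and 23.9 CPM in the vehicle libraries and 52.5, 61.6 and 69.7 CPM in the rebamipide libraries (log2 fold change 1.51, SE 0.21, adjusted p = 0.0104, up to 0.0747 where 1 library was left out). Mgst1, the microsomal transferase of the endoplasmic reticulum and the outer mitochondrial membrane, was among the most abundant members, with 152, 249 and 375 CPM against 511, 785 and 797 CPM. Its groups did not overlap, yet its log2 fold change of 1.43 missed the threshold by little (adjusted p = 0.0508), and it passed with DESeq2 (adjusted p = 0.00737), limma-voom (0.0378) and edgeR on genes with at least 10 counts in every sample (0.0401). Mgst2 and Mgst3, which belong to leukotriene metabolism, had overlapping groups. The log2 fold change of Mgst2 was 0.22 (adjusted p = 0.725) and became -0.42 with scaling by total counts alone, and that of Mgst3 was -0.20 (adjusted p = 0.638).

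Nfe2l2 itself had 86.4, 79.4 and 90.9 CPM under vehicle and 78.3, 109 and 86.9 CPM under rebamipide, a log2 fold change of 0.09 (adjusted p = 0.731) that became -0.54 and passed as lower (adjusted p = 0.0469) with scaling by total counts alone. Of 6 textbook targets of NRF2 among the members (Nqo1, Gclc, Gclm, Hmox1, Srxn1, Txnrd1) 1, Srxn1, was higher and 0 were lower, with a median log2 fold change of -0.47, against 14.1% and 6.51% of all genes. DESeq2 called Srxn1 higher and Hmox1 lower. Nqo1, a quinone reductase, had 7.71, 9.32 and 12.3 CPM against 10.01, 5.42 and 3.62 CPM (log2 fold change -0.62, adjusted p = 0.322). Hmox1, the inducible heme oxygenase, had 46.4, 59.9 and 45.1 CPM against 34.8, 19.5 and 14.9 CPM. All 3 of its rebamipide libraries lay below the vehicle libraries, and its log2 fold change of -1.13 did not pass with edgeR (adjusted p = 0.0662) and did with DESeq2 (adjusted p = 0.0187). It also passed with edgeR on total counts alone (-1.69, adjusted p = 0.0336) and when rebamipide library 1 was left out (-1.55, adjusted p = 0.0137), as well as with limma-voom (adjusted p = 0.0492), limma on log2(FPKM + 1) (0.0183) and edgeR on genes with at least 10 counts in every sample (0.0447). Hmox2, the constitutive heme oxygenase, was higher (39.0, 34.7 and 33.5 CPM against 57.7, 78.3 and 69.4 CPM, log2 fold change 0.94, adjusted p = 0.0223), and it lies across Cdip1 on the opposite strand, which was higher as well (log2 fold change 2.12, adjusted p = 0.0105). Without the second vehicle library, the second rebamipide library or the third rebamipide library the call of Hmox2 was lost, with an adjusted p of up to 0.104, and scaling by total counts alone also ended it (0.30 on the log2 scale, adjusted p = 0.165). The call of Srxn1 was kept by edgeR in 1 of the 6 fits that left out a library and was lost with scaling by total counts alone.

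None of the 4 genes of glutathione synthesis and reduction passed. Gclc, the catalytic subunit of the rate-limiting enzyme of glutathione synthesis, had 97.3, 45.7 and 25.8 CPM in the vehicle libraries and 26.2, 47.3 and 44.0 CPM in the rebamipide libraries (log2 fold change -0.52, adjusted p = 0.467). Gclm, its regulatory subunit, had 66.1, 43.5 and 30.0 CPM against 31.6, 54.2 and 52.2 CPM (log2 fold change -0.02, adjusted p = 0.975). In both the first vehicle library was the highest of all 6. Gss, which completes glutathione, had 18.4, 10.6 and 8.32 CPM against 15.2, 35.8 and 36.6 CPM, with the first rebamipide library inside the vehicle range (log2 fold change 1.23, adjusted p = 0.101, DESeq2 adjusted p = 0.048). Gsr, which reduces oxidized glutathione, had 53.6, 34.1 and 30.0 CPM against 40.1, 43.1 and 40.5 CPM, a log2 fold change of 0.07 (adjusted p = 0.852) that became -0.56 with scaling by total counts alone.

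The antioxidant response element is the DNA motif bound by NRF2 with small MAF proteins, and its core TGACNNNGC was searched on both strands of the RefSeq promoter windows (250 bases before to 50 after the start, GRCm38.p6). Of the 70 members 59 had a window, and 13 of these (22%) held the core, as did 14% of all 27025 genes. Of the 12 tested members with the core 3 were higher (Srxn1, Sod1 and Gstm7), with a median log2 fold change of 0.36, and of the 41 without it 17 were higher, with a median of 0.79. The element is shown for 7 of the 13, the 3 that were higher and 4 that did not pass, with the core in capitals, each sequence in the direction of its gene and the distance counted to the core's first base.
Srxn1, 29 bases after the start, chr2:152105542-152105570, plus strand: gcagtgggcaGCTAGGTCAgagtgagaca
Sod1, 56 bases before the start, chr16:90220686-90220734, plus strand: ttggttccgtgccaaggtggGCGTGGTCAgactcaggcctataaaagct
Gstm7, 129 bases before the start, chr3:107931715-107931763, minus strand: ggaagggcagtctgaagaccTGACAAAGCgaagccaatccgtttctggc
Prdx1, 133 bases before the start, chr4:116685446-116685494, plus strand: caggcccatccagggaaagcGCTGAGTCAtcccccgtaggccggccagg
Mgst1, 56 bases before the start, chr6:138140451-138140499, plus strand: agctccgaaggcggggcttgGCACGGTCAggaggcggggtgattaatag
Txnrd1, 92 bases before the start, chr10:82859094-82859142, plus strand: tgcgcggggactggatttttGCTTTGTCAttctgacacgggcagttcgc
Gclm, 134 bases before the start, chr3:122245403-122245451, plus strand: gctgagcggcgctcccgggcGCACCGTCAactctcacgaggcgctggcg
No core overlapped a GC box of the same window. In 6 of the 7 the core was read on the strand opposite to the gene, and in Gstm7 on the same strand. A match of letters is a description of the window and not a bound site.

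The symbol rule also took genes with thioredoxin domains outside these systems. Of 12 such Txndc and Txnl genes 10 were tested and 2 were higher (20%, against 14.1% of all genes), with a median log2 fold change of -0.03. Txndc12, an oxidoreductase of the endoplasmic reticulum, had 35.4, 27.8 and 26.5 CPM against 49.1, 58.7 and 61.6 CPM (log2 fold change 0.92, adjusted p = 0.0277). Txnl4b, a spliceosome protein with a thioredoxin fold, had 9.19, 7.37 and 7.04 CPM against 16.6, 22.0 and 25.6 CPM (log2 fold change 1.44, adjusted p = 0.0181). Both calls were lost without the second vehicle, the second rebamipide or the third rebamipide library, and that of Txndc12 also without the third vehicle library, with adjusted p-values of up to 0.117 for Txndc12 and 0.0958 for Txnl4b. With scaling by total counts alone Txndc12 had a log2 fold change of 0.28 (adjusted p = 0.251). Txndc12 shares its span and strand with Kti12, which did not pass (log2 fold change 0.12). Txndc5, a disulfide isomerase of the endoplasmic reticulum, had 202, 161 and 124 CPM against 133, 87.7 and 86.4 CPM (log2 fold change -0.66, adjusted p = 0.133), and Txndc17 had 98.6, 93.8 and 94.7 CPM against 75.2, 82.6 and 81.0 CPM (log2 fold change -0.27, adjusted p = 0.226). Both passed as lower with scaling by total counts alone, Txndc5 at -1.25 (adjusted p = 0.0417) and Txndc17 at -0.89 (adjusted p = 0.0142). Leaving the Txndc and Txnl genes out, 21 of 52 tested members were higher (40.4%).

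Other genes of the same pathways were taken as 4 lists. Of 14 tested genes of NADPH supply 7 were higher and 0 were lower (50%), and the median log2 fold change was 1.03. The transketolase Tkt rose from 228 ± 25.6 to 1824 ± 195 CPM (SD, n = 3, log2 fold change 3.00, adjusted p = 0.00939), and Taldo1, of the same pentose phosphate pathway, from 175 ± 11.6 to 743 ± 127 CPM (log2 fold change 2.09, adjusted p = 0.00939). Idh2, which makes NADPH in the mitochondrial matrix, rose from 60.6 ± 14.8 to 381 ± 101 CPM (log2 fold change 2.65, adjusted p = 0.00958), and Pgd, of the oxidative pentose phosphate steps, had a log2 fold change of 1.23 (adjusted p = 0.0134) that became 0.61 and did not pass (adjusted p = 0.0627) with scaling by total counts alone. H6pd, Pgls and Me3 were the remaining 3. Of 22 genes of glutathione supply and turnover 5 were higher (22.7%) and 1 was lower (4.55%), with a median of -0.01, where 14.1% and 6.51% of all genes were. The 4 with the smallest p-values were Slc25a39, a carrier needed for glutathione import into mitochondria (46.4 ± 5.16 to 233 ± 64.9 CPM, log2 fold change 2.33, adjusted p = 0.00939), Glrx5, a mitochondrial glutaredoxin of iron-sulfur cluster assembly (1.40, adjusted p = 0.00993), Oplah (2.39, adjusted p = 0.0104) and Hagh (1.66, adjusted p = 0.0108), and the fifth was Glrx3. The 1 lower was Slc7a11, the cystine importer, named after its values were seen, with 17.2, 10.4 and 1.58 CPM under vehicle and 0.593, 0.156 and 0 CPM under rebamipide (log2 fold change -5.24, adjusted p = 0.0463). Its vehicle libraries spread widely, with the third nearest to the rebamipide libraries. Without the second vehicle or the second rebamipide library edgeR called no gene of these lists lower, and the adjusted p of Tkt, Taldo1 and Idh2 was then 0.0747 and 0.0573.

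Of 12 other peroxide and methionine sulfoxide enzymes 4 were higher (33.3%) and 0 were lower, with a median of 0.58. Cat, the catalase of peroxisomes, rose from 244 ± 98.9 to 1199 ± 403 CPM (log2 fold change 2.29, adjusted p = 0.0216), and the methionine sulfoxide reductases Msra (2.19, adjusted p = 0.00993) and Msrb2 (2.83, adjusted p = 0.0104) were higher beside Ccs. Of 20 regulators and other targets of NRF2 4 were counted higher (20%) and 1 lower (5%), with a median of -0.05, where 14.1% and 6.51% of all genes were. Cbr1, a carbonyl reductase (log2 fold change 1.67, adjusted p = 0.0125), and Blvra, a biliverdin reductase (1.17, adjusted p = 0.0145), were higher, the latter not with scaling by total counts alone (0.53, adjusted p = 0.0509). Bach1, a repressor of antioxidant genes, was lower (-0.91, adjusted p = 0.0423). Keap1 was narrowly past the threshold (0.58, adjusted p = 0.0449), but its log2 fold change became -0.025 with scaling by total counts alone, and it did not pass with RLE scaling (adjusted p = 0.0512), with no filter (0.0677) or with at least 10 counts in every sample (0.0565). Slc48a1, a heme transporter, was the other gene called higher. Bach1 passed in 1 of the 6 edgeR fits that left out a library, the one without the first vehicle library (adjusted p of 0.0587 to 0.125 in the others), and Keap1 in 1 of 6, the one without the first rebamipide library (0.0683 to 0.185 in the others). Cat did not pass without the second vehicle (0.105), the second rebamipide (0.0902) or the third rebamipide library (0.0501). Blvra was lost in the same fits (0.0864, 0.0767 and 0.0503).

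Levels between genes were compared as CPM per kilobase of gene length. In the vehicle libraries Gpx3 was the highest member at 374 ± 204 (SD, n = 3), followed by Prdx1 at 133 ± 13.1, Mgst1 at 129 ± 55.6, Txnip at 91.7 ± 49.9, Txn1 at 86.0 ± 7.52 and Gpx4 at 84.3 ± 30.7. From Prdx1 to Gpx4, neighbours in this order differed by less than the larger of their SDs. In the rebamipide libraries the order was Gpx3 at 1630 ± 514, Gpx4 at 585 ± 189, Txnip at 417 ± 69.3, Prdx3 at 391 ± 101 and Mgst1 at 347 ± 80.3, and from Gpx4 downward neighbours again differed by less than the larger SD. Prdx3 stood at 57.6 ± 13.1 under vehicle, below Prdx1, and above Prdx1 (204 ± 23.3) under rebamipide. By mean CPM, without division by length, Prdx3 was below Prdx1 under vehicle (85.1 against 404 CPM) and under rebamipide (578 against 621 CPM). The testis-type genes Txndc2 and Txndc8 and the olfactory Gpx6 were at or near 0 in all libraries.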

How the data were processed

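Total RNA of full-thickness dorsal skin from 3 vehicle-treated and 3 rebamipide-treated mice was sequenced from poly-A libraries. The mice came from a cohort kept for sequencing, and each library is 1 mouse. The authors deposited 1 table with raw read counts and FPKM (fragments scaled to gene length and library size) for each library, and no replicate was pooled. The submitters' processing notes name fastp 0.22.0, HISAT2 2.1.0, HTSeq 0.9.1 and GRCm39. The strand setting of the counting is not given in the sources used here, so genes that overlap on opposite strands are uncertain (18 members overlap another gene, 8 of them called higher).

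Counts were tested with edgeR 4.0.16 in R 4.3.3 (TMM, the filterByExpr filter, quasi-likelihood test, Benjamini-Hochberg adjustment over all genes tested). CPM values use TMM-scaled library sizes, and a count of 0 allows up to 3 counts. Alternatives were RLE scaling, total counts alone, DESeq2 1.42.0, limma-voom and limma 3.58.1 on log2(FPKM + 1) of the deposited FPKM, no filter, a minimum of 10 counts in every sample, a replicate block and leaving out each library. The scripts were tested on simulated data.

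The members and gene lists were chosen with earlier results of these data known. Compartments came from a hand-written table. Named with values were the superoxide dismutases, peroxiredoxins, glutathione peroxidases, thioredoxins and their reductases, Txnip, Gstk1, the microsomal transferases, the glutathione synthesis and NRF2 genes, and, of the remaining transferases and Txndc and Txnl genes, those that passed and the 3 most abundant of each family. Each further list had its 4 genes of lowest p named. Sequences are from GRCm38 (GENCODE vM21 and RefSeq GRCm38.p6) and were not combined with the coordinates of the count table. Figures were drawn with matplotlib 3.10.9.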

Additional observations from a re-analysis of the deposited data

How the results depend on the processing

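The 23 genes called higher kept a positive log2 fold change under every alternative run, and the mitochondrial median stayed above the cytosolic one. The count of members called higher was 16 to 30 outside the fits that left out a library and 0 to 33 across those, the 0 standing for edgeR without the second vehicle or the second rebamipide library. The count of members called lower, 0 in edgeR, was 8 with total counts alone, 4 with DESeq2, 2 with limma-voom, 10 with limma on log2(FPKM + 1), 1 with at least 10 counts in every sample, 4 with the thresholds of the study's methods, and 0 to 6 across the fits that left out a library. Outside the fits that left out a library, 1258 to 2719 of all genes tested were called higher. The count of all genes called lower was 968 in the main fit, 3752 with total counts alone, 2534 with DESeq2 and 1033 with limma-voom. With limma on log2(FPKM + 1) it was 4809, and with at least 10 counts in every sample 1512. The cause of these differences between fits was not tested.

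The mitochondrial median was 2.05 with total counts alone, 1.87 with limma on log2(FPKM + 1), 1.14 with annotated compartments and 1.66 with members of mitochondria and elsewhere included. The cytosolic median turned to -0.12 with total counts alone and -0.11 on log2(FPKM + 1). The ratios of paralogs were the same from the deposited FPKM. Directions also turned with total counts alone, which moved the median of all genes by -0.603, for Gsr (-0.56), Gstm5 (-0.27), Gstp2 (-0.18), Mgst2 (-0.42), Nfe2l2 (-0.54), Prdx1 (-0.004), Prdx2 (-0.29), Txn1 (-0.12), Keap1 (-0.025), Gstm6 (-0.34), Txndc11 (-0.24) and Txnl4a (-0.50). On log2(FPKM + 1) they were -0.47 for Gsr, -0.28 for Gstm5, -0.29 for Gstp2, -0.23 for Mgst2, -0.52 for Nfe2l2, -0.001 for Prdx1, -0.23 for Prdx2, -0.11 for Txn1 and -0.032 for Keap1. Gclm was 0.009 with limma-voom and Gsr -0.001 with at least 10 counts in every sample.

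Leaving out 1 library turned the direction of 12 genes that had not passed. Their log2 fold changes ran from -0.87 to 0.13 for Gclc, -0.25 to 0.32 for Gclm, -0.49 to 0.11 for Gpx7, -0.08 to 0.35 for Gsr, -1.21 to 0.15 for Gsta3, -0.46 to 0.75 for Gstp2, -0.30 to 0.15 for Gstt3, -0.12 to 0.42 for Mgst2, -0.39 to 0.16 for Mgst3, -0.044 to 0.21 for Nfe2l2, -0.22 to 0.03 for Prdx4 and -0.69 to 0.073 for Txnrd1.

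The libraries share replicate numbers, but same-numbered libraries did not deviate together (correlations -0.016, -0.038 and 0.003), and no library correlated best with its own number. With the replicate block 19 members were higher and 0 lower, 18 of the 23 calls were kept (lost were Gstp1, Hmox2, Srxn1, Txndc12 and Txnl4b, with adjusted p-values of 0.0585 to 0.0782, and outside the members Bach1 at 0.0652 and Keap1 at 0.103), Mgst1 passed (0.0329), 1432 of all genes were higher and 855 lower, and Gclm was 0.028.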
